A study of Bos taurus with 8 samples.

Results

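Of 10 genes of de novo fatty acid synthesis and desaturation, 9 could be measured in lactating bovine mammary gland. They were FASN, ACACA, ACLY, ACSS1, ACSS2, SCD, ELOVL6, FADS2 and THRSP, and they were read by 11 of the 24016 probe sets tested. A probe set, which is a group of short probes for 1 transcript, was taken as a member when the platform annotation gave it exactly 1 gene symbol and that symbol was one of the 10. ACACA and ACSS1 each had 2 probe sets and the other 7 genes had 1. No probe set carried the symbol FADS1, the delta-5 desaturase, which was not analysed here. The biopsies came from 4 lactating Holstein cows (Bos taurus). Each cow gave 1 full gland sample, at 12 h since milk removal, and 1 empty gland sample, taken at 0 h when milk had just been removed. RNA of each sample went on its own single-colour array, 8 in all. The comparison asks how accumulated milk affects expression, and pairs the full with the empty gland of the same cow. No treatment or genotype is named beyond the milking state, and the labels used here do not state the cows' age, their stage of lactation or which gland of the udder was sampled.

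Fatty acid synthesis in the cytosol starts from acetyl-CoA, which ACACA carboxylates to malonyl-CoA and which FASN then builds, with malonyl-CoA, into saturated chains. In ruminants the mammary gland draws its acetyl-CoA mainly from blood acetate, activated by ACSS2, and makes the short and medium chains that are typical of milk fat, while ACLY, which makes acetyl-CoA from citrate, is a smaller source. ELOVL6 lengthens the chains, SCD places the delta-9 double bond that gives oleic acid, and FADS2 starts the synthesis of long polyunsaturated chains. THRSP is a small nuclear and cytosolic protein that promotes lipogenesis in mammary gland and liver.

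Values are log2 levels per probe set, made by the authors with the RMA method, and a gene with 2 probe sets is represented by the brighter one in all counts. Levels of different probe sets are not comparable with each other, so only differences between libraries are interpreted. In full gland 7 of the 9 genes had a lower mean and 2, ACLY and ELOVL6, a higher one, while 51.4% of the 9155 genes on the array had a lower mean. The genes were chosen with earlier results of these data known, so this count is only a description. The median difference, full minus empty, was -0.21 log2 over the 9 genes and -0.0036 over all genes. The members' median was -0.042 without cow 4 and -0.024 in cows 1 and 3 alone. The full and empty means did not differ past the threshold for any of the 11 probe sets (limma with cow as a block, adjusted p = 0.993 for each), as was the case for 0% of the 24016 probe sets. Directions below are therefore those of the measured means and do not stand out from the spread between cows. In biopsies, fewer cells of a type and less RNA per cell cannot be told apart.

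**Figure D1:**
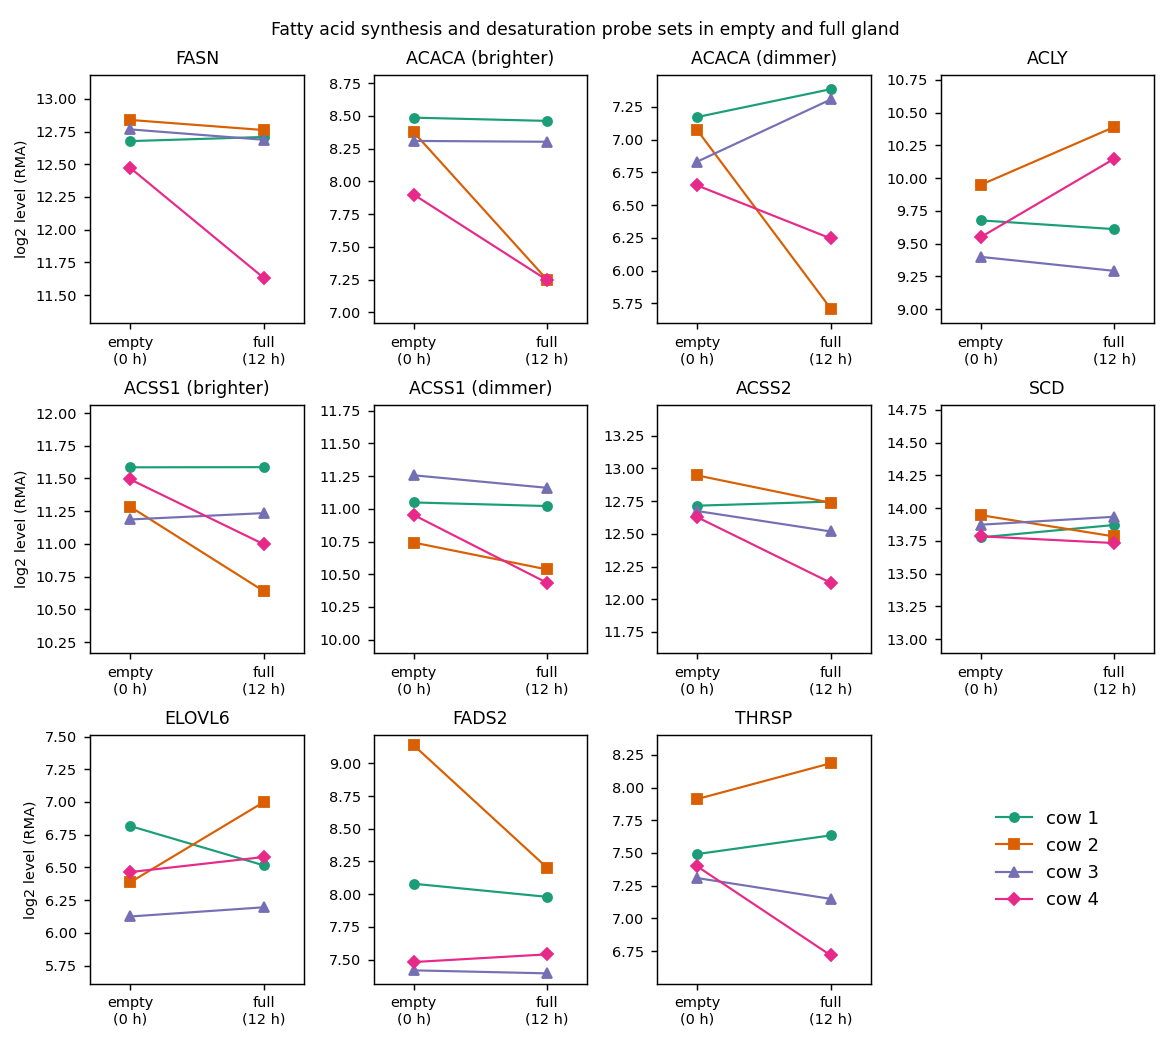
Log2 level (RMA) of each of the 11 probe sets in empty (0 h) and full (12 h) gland, with 1 line per cow. All panels span the same number of log2 units. The lines of cows 1 and 3 are nearly flat in most panels, and the largest slopes belong to cows 2 and 4, such as FASN in cow 4 (12.47 to 11.63) and ACACA in cow 2 (8.38 to 7.25 for the brighter probe set).

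Before the single genes, the libraries need a description, because those of cows 2 and 4 differed from the others. The full libraries of these cows correlated less with the rest (median r of 0.969 and 0.9753) than any of the other 6 libraries did (0.9856 or above). The GAPDH control probe sets at the 5' end differed from those at the 3' end by -3.31 log2 in the full library of cow 2, and by -2.13 to -1.53 in the other 7 libraries. The same difference of the EF1a control probe sets was also lowest in that library, at 0.75, against 1.25 to 1.96 in the other 7. These measures are sensitive to RNA breakage. Defining markers of secretory epithelium were high in both states, with alpha-lactalbumin (LALBA) at 14.20 ± 0.052 (SD, n = 4) in empty and 14.20 ± 0.034 in full gland. The summed level of all 11 luminal markers lay between 16.79 and 16.91 in empty and between 16.79 and 16.89 in full gland. Such a sum of linear levels is carried by the brightest probe sets, and dimmer epithelial markers did not follow it in every pair. KRT18, a luminal keratin, was higher in full gland by 1.19 log2 in cow 2 and 1.36 in cow 4. Its partner KRT8 differed by 0.11 and 1.21 in these cows and by -0.72 in cow 1. The adhesion molecule EPCAM differed by 0.81 and 0.23 in cows 2 and 4, and the bright luminal marker ELF5 by -0.29 and -0.17. Of the 11 luminal markers 5 had a higher mean in full gland. None of the 11 passed limma. The part of these shifts in the members' values was not tested.

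Acetate activation by ACSS2 is the entry step for ruminant milk fat. Both acetyl-CoA synthetases, ACSS2 and the mitochondrial ACSS1, had lower means in full gland. ACSS2, the cytosolic acetyl-CoA synthetase, was at 12.71, 12.95, 12.67 and 12.63 in the empty glands of cows 1 to 4. In the full glands of the same cows it was at 12.75, 12.74, 12.52 and 12.13. The lowest value was that of cow 4 in full gland, and the ranges of the groups overlapped. The difference was -0.21 ± 0.10 log2 (SE moderated by limma and used after ± for every difference that follows, n = 4 cows), a ratio of 0.865, with a 95% interval of -0.46 to 0.040. It was lower in 3 of the 4 cows, and without cow 4 the mean difference was -0.11.

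ACSS1, the mitochondrial acetyl-CoA synthetase, makes acetyl-CoA for oxidation and not for cytosolic chain building. Its brighter probe set was at 11.59, 11.28, 11.19 and 11.49 in empty gland and at 11.59, 10.64, 11.24 and 11.0 in full gland of cows 1 to 4. Cows 2 and 4 were lower in full gland, with differences of -0.64 and -0.495 log2, and cows 1 and 3 were nearly level. The mean difference was -0.27 ± 0.14 log2, with a 95% interval of -0.62 to 0.073. Without cow 2 it was -0.15, and in cows 1 and 3 alone it turned to 0.025. The other probe set gave -0.21 ± 0.10 and was lower in all 4 cows, with its largest difference in cow 4 at -0.52. On the 2 probe sets cow 2 differed by -0.64 and -0.21, so they did not give the same size there.

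ACLY, the ATP citrate lyase, was the gene of the set with the highest mean difference. It was at 9.68, 9.95, 9.40 and 9.55 in empty gland and at 9.61, 10.39, 9.29 and 10.15 in full gland of cows 1 to 4. The full libraries of cows 2 and 4 were the highest of the 8, and those of cows 1 and 3 lay slightly below their empty partners. The difference was 0.22 ± 0.14 log2, with a 95% interval of -0.14 to 0.57. It was 0.14 without cow 2 and 0.090 without cow 4. Over cows 1 and 3 alone the mean difference was -0.087, of the opposite sign.

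ACACA, the acetyl-CoA carboxylase whose step is the committed one of the pathway, had the lowest mean difference of the 9 genes. Its brighter probe set was at 8.49, 8.38, 8.31 and 7.90 in empty gland and at 8.46, 7.25, 8.30 and 7.25 in full gland. The full libraries of cows 2 and 4 were below every other library, while cows 1 and 3 differed by -0.025 and -0.0063. The difference was -0.45 ± 0.20 log2, a ratio of 0.730, with a 95% interval of -0.96 to 0.051. It was lower in all 4 cows, the 1 gene of the 9 of which this held, beside 7.11% of all genes on the array. No member was higher in all 4 cows, as 3.59% of all genes were. In none of the 9 did full and empty values separate without overlap, as they did downward for 0.36% and upward for 0.35% of all genes.

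The dimmer ACACA probe set was at 7.17, 7.07, 6.83 and 6.65 in empty gland and at 7.39, 5.71, 7.31 and 6.25 in full gland. It was lower in cows 2 and 4, at -1.36 and -0.41, and higher in cows 1 and 3, at 0.21 and 0.47. Its mean difference was -0.27 ± 0.30. The probe sets of ACACA thus shared the direction in cows 2 and 4 only. The full library of cow 2, lowest on the dimmer probe set, was also the one with the GAPDH difference of -3.31. With that GAPDH difference as a covariate, a model chosen after seeing the data, the brighter probe set differed by -0.38. The GAPDH difference was higher in full than in empty gland in cows 1, 3 and 4 and lower in cow 2. A mean adjusted for it can therefore move little, whatever the adjustment within cow 2. The part of RNA breakage in the ACACA values was not tested. Without cow 2 it differed by -0.23, without cow 4 by -0.39, and without both by -0.016.

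FASN, the multienzyme that builds the chain, was at 12.68, 12.84, 12.77 and 12.47 in empty gland. In full gland it was at 12.71, 12.76 and 12.69 in cows 1 to 3 and at 11.63 in cow 4. The full library of cow 4 lay below the other 7 libraries, of which the lowest was at 12.47. The mean was 12.69 ± 0.16 in empty and 12.45 ± 0.54 in full gland (SD, n = 4), a difference of -0.24 ± 0.16 log2 with a 95% interval of -0.63 to 0.15. Without cow 4 the difference was -0.042. In that cow's pair the fibroblast and matrix markers (7 of 7 measured) were higher by 0.76 log2 in summed level, and the part of this in the FASN value was not tested.

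THRSP had its highest values in cow 2 and its lowest in the full gland of cow 4. It was at 7.49, 7.91, 7.31 and 7.40 in empty gland and at 7.63, 8.19, 7.15 and 6.72 in full gland. Cows 1 and 2 were higher in full gland, by 0.14 and 0.27, and cows 3 and 4 lower, at -0.16 and -0.68. The mean difference was -0.11 ± 0.16 log2, with a 95% interval of -0.51 to 0.30. Without cow 4 it was 0.086, of the opposite sign.

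SCD, the stearoyl-CoA desaturase, had the narrowest range of values of the 9 genes. It was at 13.78, 13.95, 13.87 and 13.78 in empty gland and at 13.87, 13.78, 13.93 and 13.73 in full gland. All 8 values lay near the top of the table, whose highest value was 14.43. LALBA, also near the top, had a small SD as well (0.052 in empty and 0.034 in full gland). Whether signals at this height still follow RNA amount was not tested, so the narrow range does not by itself show steady expression. The difference was -0.015 ± 0.075 log2, with a 95% interval of -0.20 to 0.17, and 2 of the 4 cows were lower. Its sign turned to 0.0042 when the quantile normalization was repeated.

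FADS2, the delta-6 desaturase, had the widest spread between cows among the empty glands. It was at 8.08, 9.14, 7.42 and 7.48 in empty gland and at 7.98, 8.20, 7.40 and 7.54 in full gland. Cow 2 was highest in both states and its full minus empty difference was -0.94 log2, whereas the other cows differed by -0.10, -0.023 and 0.059. The mean difference was -0.25 ± 0.18, with a 95% interval of -0.69 to 0.19. Without cow 2 it was -0.022. With the GAPDH difference as a covariate it was -0.18, a mean with the limit given for ACACA. FADS2 was the only member with a larger SD in empty gland (0.80) than in full gland (0.38). For 8 of the 9 genes the full glands had the larger SD, as did 75.2% of all genes on the array.

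ELOVL6, the elongase of long saturated chains, gave a dim signal, below the array medians of 7.08 to 7.24 in every library. It was at 6.82, 6.39, 6.13 and 6.46 in empty gland and at 6.52, 7.0, 6.20 and 6.58 in full gland. Cow 2 was higher in full gland by 0.61 and cow 1 differed by -0.30, while cows 3 and 4 differed by 0.070 and 0.12. The mean difference was 0.12 ± 0.15 log2, with a 95% interval of -0.24 to 0.49. Without cow 2 it was -0.038.

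**Figure D2:**
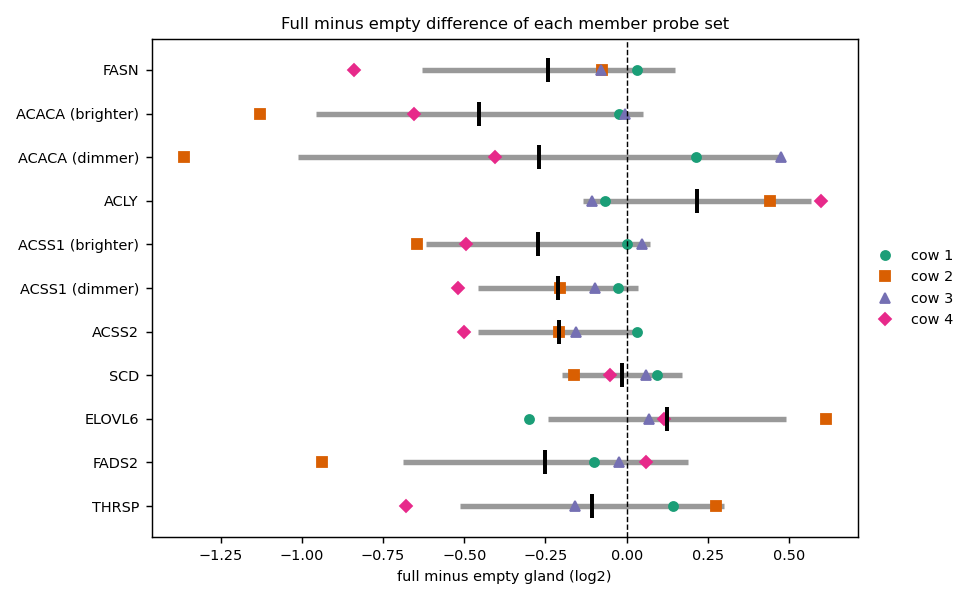
Full minus empty difference (log2) of each member probe set. Points are the 4 cows, the black tick is the mean difference and the grey bar its 95% interval from limma. All 11 bars cross 0, and the points farthest from 0 belong mostly to cows 2 and 4, reaching -1.36 for the dimmer ACACA probe set and 0.61 for ELOVL6, both in cow 2.

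Read across genes, large differences were rare in cows 1 and 3, over the whole array as in this pathway. Over all probe sets the differences had an SD of 0.185 and 0.173 log2 in these cows, against 0.382 and 0.302 in cows 2 and 4. In cow 1 none of the 9 genes differed by over 0.5 log2 in either direction, where 2.16% of all genes did, and the same held in cow 3, where 1.15% did. Among 9 genes, none is near these shares. In cow 2, 4 of the 9 genes differed by over 0.5 log2, beside 17.6% of all genes. FADS2, ACACA and ACSS1 were lower there and ELOVL6 higher. In cow 4, 5 of the 9 did, beside 11.7% of all genes. FASN, THRSP, ACACA and ACSS2 were lower in cow 4 and ACLY higher.

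The array as a whole leaned the other way in cow 4, with 9.12% of genes higher and 2.59% lower by over 0.5 log2. In cow 2 it had 10.8% higher and 6.78% lower. The members' median differences were 0.0012, -0.16, -0.023 and -0.50 in cows 1 to 4, against -0.052, 0.029, -0.019 and 0.017 for all genes. Cows 2 and 4 shared the low ACACA (-1.13 and -0.65). They also shared a low ACSS1 (-0.64 and -0.495) and a high ACLY (0.44 and 0.60), each past 0.5 in 1 of these cows. FASN, THRSP and ACSS2 were low by over 0.5 log2 only in the pair of cow 4, and FADS2 only in that of cow 2. Whether the cows differ in these genes' responses cannot be tested with 1 pair per cow.

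ACLY and ACACA differed in opposite directions in cows 2 and 4. The difference of ACLY minus that of ACACA was 1.57 log2 in cow 2 and 1.25 in cow 4, and -0.042 and -0.10 in cows 1 and 3. Against FASN, the difference of ACLY was larger by 0.52 in cow 2 and by 1.44 in cow 4. Between the 2 acetyl-CoA synthetases the differences of ACSS1 minus ACSS2 were -0.030, -0.44, 0.20 and 0.0060 in cows 1 to 4, which share no direction. These contrasts between genes were not tested.

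Differences between the 4 animals were examined with the F-test of the cow terms in the same limma model. None of the 11 probe sets passed it, beside 0.437% of all probe sets. FADS2 had the smallest adjusted p, at 0.212, followed by the dimmer ACSS1 probe set at 0.266 and THRSP at 0.278. SCD had the largest, at 0.787. Before adjustment 4 of the 11 were under 0.05, beside 14.8% of all probe sets. The ACLY adjusted p was 0.305 and that of FASN 0.339.

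Adipocytes, which lie around the secretory tissue, use the same enzymes to make fat. Of the 10 adipocyte markers listed 8 were measured. Their summed level was between 13.10 and 13.27 in empty and between 13.02 and 13.23 in full gland. This sum too is carried by its brightest probe set, FABP4 at 13.11 in empty and 13.04 in full gland. It does not measure a share of adipocytes. The median difference over the 8 genes was -0.092, -0.12, -0.071 and -0.012 log2 in cows 1 to 4. Single markers went either way. In cow 2 CIDEC differed by 1.01 and CFD by -0.45, and in cow 4 AQP7 by 0.75 and CFD by -0.18. Of the 8 genes 2 had a higher mean in full gland. The defining adipokine ADIPOQ was at 5.37 ± 0.067 in empty and 5.34 ± 0.083 in full gland (SD, n = 4), near the lowest value in the table of 4.98, and LEP, another adipokine, was at 6.13 ± 0.34 and 6.0 ± 0.18.

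Stromal and immune markers were higher in the full glands of cow 4 and, for several lists, of cow 2. The summed fibroblast markers differed by -0.35, 0.21, -0.11 and 0.76 log2 in cows 1 to 4, and lay between 14.08 and 14.65 in empty and 13.97 and 15.22 in full gland. Myoepithelial markers (7 of 7 measured) spanned 13.46 to 13.77 and 13.38 to 14.36, myeloid markers (8 of 8) 11.74 to 11.87 and 11.59 to 12.19, and lymphocyte markers (5 of 6) 9.39 to 9.61 and 9.30 to 10.09, in empty and full gland. In each of these lists the highest library was the full one of cow 4, as it was for skeletal muscle markers (4 of 4), at 9.99 to 10.42 and 10.11 to 11.02. Endothelial markers (5 of 5) lay between 11.88 and 12.11 in empty and 11.61 and 12.07 in full gland. In cow 2 the summed markers were higher in full gland by 0.46 log2 for lymphocytes, 0.33 for myoepithelium and 0.20 for skeletal muscle. The summed myeloid and endothelial markers of that cow differed by -0.034 and -0.36. By the median over the genes, its myeloid markers differed by 0.43 and its skeletal muscle markers by -0.13. The part of these shifts was not tested, neither in the low FASN, THRSP, ACSS2 and ACACA of cow 4 nor in the low ACACA, ACSS1 and FADS2 of cow 2.

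**Figure D3:**
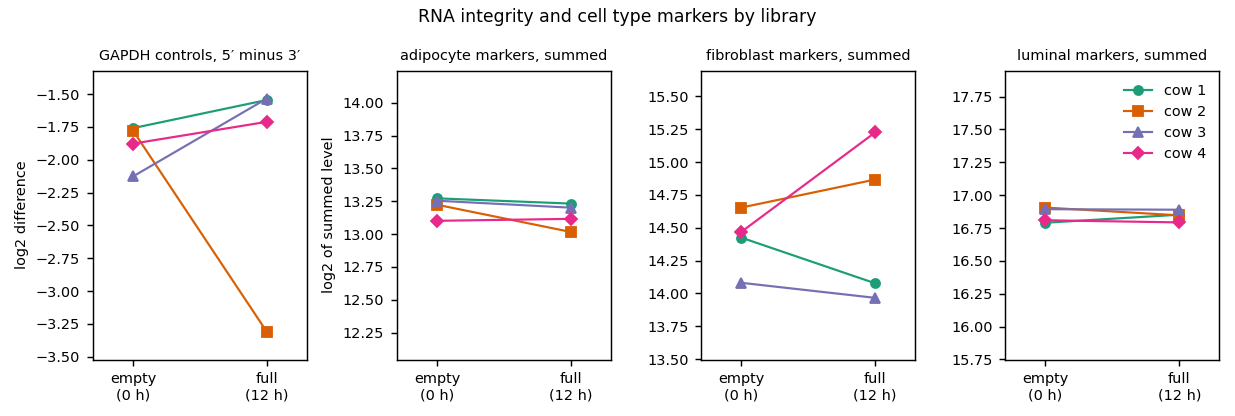
Measures of the 8 libraries in empty and full gland, with 1 line per cow. The panels show the 5' minus 3' difference of the GAPDH control probe sets (log2) and log2 of the summed level of adipocyte, fibroblast and luminal markers, each over the same span of log2 units. The full library of cow 2 stands apart at -3.31 for GAPDH, and that of cow 4 at 15.22 for fibroblast markers.

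The surrounding pathway was read with 39 further genes of carbon supply, elongation and desaturation, regulation and NADPH supply, of which 29 had a probe set with that symbol alone. Of these 22 had a lower and 7 a higher mean in full gland, where 51.4% of all genes had a lower one. The lists were chosen with earlier results of these data known, so such counts only describe them. Lower in all 4 cows were 3 of the 29 (INSIG1, PGD and the regulator PRKAA2), beside 7.11% of all genes. None was higher in all 4, beside 3.59% of all genes. The median over the 29 was -0.089 log2, against -0.0036 over all genes. None of the 29 passed limma over all probe sets (adjusted p of 0.993 to 0.999). All 4 measured genes of carbon supply and the acyl chain had lower means, with a median of -0.10. SLC25A1, the mitochondrial citrate carrier that brings ACLY its substrate to the cytosol, was at 8.71 ± 0.084 in empty and 8.32 ± 0.34 in full gland (SD, n = 4). Its difference of -0.38 ± 0.13 was opposite in sign to that of ACLY. ACACB, the carboxylase isoform at the mitochondrial surface, differed by -0.091 ± 0.076.

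Among 13 measured regulators 11 had a lower mean, beside 51.4% of all genes, and their median was -0.13. This list too was chosen with earlier results of these data known, so the count is only a description. INSIG1, which retains the SREBP complex in the endoplasmic reticulum and is itself an SREBP target, differed by -0.31, -0.20, -0.27 and -0.67 log2 in cows 1 to 4. It was thus lower in all 4 cows, those with nearly level synthesis genes included, as were 7.11% of all genes. SREBF1, which encodes the transcription factor SREBP1 of lipogenic genes, had 4 probe sets. The brightest differed by -0.20 ± 0.16 and was higher in cow 2 by 0.36. The others differed by -0.26, -0.31 and -0.0073, and in cow 2 by -0.075, -0.50 and -0.023. None of them was thus higher in cow 2, and the probe set at -0.26 was lower in all 4 cows. Before adjustment its interval was -0.51 to -0.015, and that of the probe set at -0.31 was -0.62 to -0.0058. Neither reached 0, while the interval of the probe set at -0.0073 did (-0.23 to 0.21). No SREBF1 probe set passed limma after adjustment. MID1IP1, the close relative of THRSP that acts on acetyl-CoA carboxylase, differed by -0.24 ± 0.12, and cows 1 and 3 were among its lower pairs at -0.50 and -0.40. TRIB3, a stress-induced pseudokinase, differed by -0.39 ± 0.13.

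Elongation and desaturation genes outside the members had a median of -0.034, with 5 lower and 4 higher of the 9 measured. TECR, the enoyl reductase of the elongation cycle, differed by -0.27 ± 0.13, and ELOVL1, an elongase of very long chains, by -0.18 ± 0.11. Of the NADPH enzymes, PGD of the pentose phosphate pathway differed by -0.17 ± 0.075. It was lower in all 4 cows, as were 7.11% of all genes. ME1, the malic enzyme, differed by 0.30 ± 0.20 on a dim signal of 5.96 in empty and 6.26 in full gland.

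**Figure D4:**
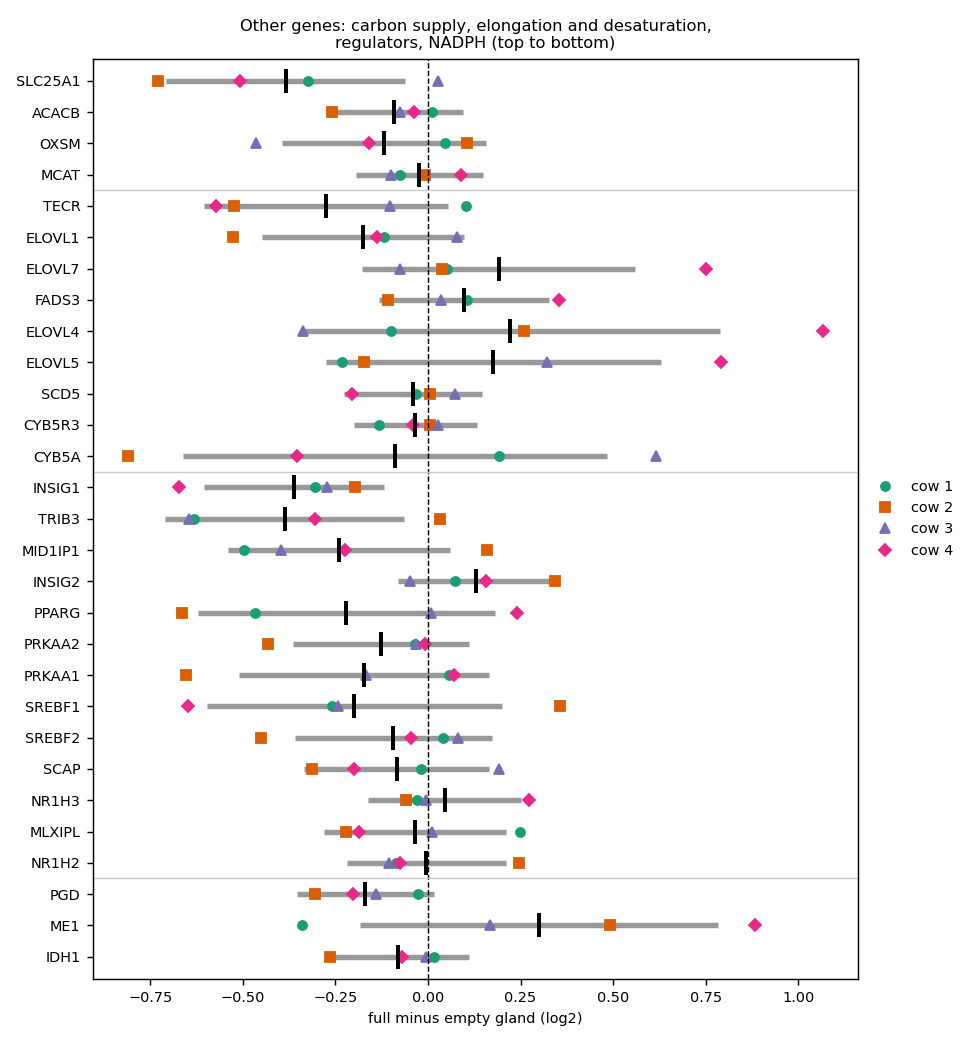
Full minus empty difference (log2) of the 29 measured genes outside the members, in 4 blocks from top to bottom (carbon supply and acyl chain, elongation and desaturation, regulators, NADPH). Points are cows, black ticks the means and grey bars the 95% intervals before any adjustment. SLC25A1, INSIG1 and TRIB3 have bars that do not reach 0, and none of the 29 passed after adjustment.

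The genes most like FASN and ACACA were sought among 8938 named genes outside the members. Likeness was the root mean square distance between the 8 centred log2 values, in which the arrays of a cow are not independent. Closest to FASN were HLF, a clock-linked transcription factor, at 0.13 log2, ZNF75D at 0.13, TBC1D8 at 0.16 and LRRC1 at 0.16. The nearest member to FASN was ACSS2, at 0.19, and the median over the 8938 genes was 0.40. Closest to ACACA were GCAT at 0.0899, GPAT4, a glycerol phosphate acyltransferase of the endoplasmic reticulum, at 0.12, RETREG1 at 0.14 and TIMM8B at 0.14. The nearest member to ACACA was ACSS1 at 0.31, with FASN at 0.39, and the median over the 8938 genes was 0.50. The distance between FASN and ACACA, consecutive enzymes of 1 pathway, was thus close to the median distance from FASN and below that from ACACA. Such a distance also grows with the size of each gene's own differences, so it does not measure how related these genes are.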

How the data were processed

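Total RNA from the 8 biopsies was copied from an oligo(dT) primer into biotinylated cRNA, per the labels' protocols. The table holds log2 values per probe set that the authors made with RMA, per the submitters' processing notes. In RMA the background is corrected, arrays are quantile-normalized and probes summarised. No source used here gives the version. That the scale is log2 follows from the deposited values, 4.98 to 14.43. Precision is limited by the number of arrays, since their signals carry no read depth.

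Without 112 platform controls, 24016 of the 24128 probe sets remained. To these the platform annotation gave 13292 exactly 1 symbol, 86 several and 10638 none. All 11 member probe sets matched RefSeq genes of ARS-UCD2.0 by entrez number, with 0 symbols changed. Files and annotation give no coordinates of the authors' build, and none are printed.

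Two-sided tests came from limma 3.58.1 (lmFit, eBayes; R 4.3.3), with fixed terms for state and cow. Adjustment after Benjamini and Hochberg covered all 24016 probe sets with a threshold of 0.05, and the model had 3 residual and 2.81 prior degrees of freedom. Cow was a block because the labels name 1 full and 1 empty sample of each animal. Deviations from group means correlated at r = 0.457, 0.319, 0.597 and 0.525 within cows 1 to 4, and at -0.0311 or below between cows. Because each group was centred on its own mean, positive values within cows pull those between cows below 0. The values between cows therefore add no separate support for the pairing. The model was tested on simulated data. Tables and figures used Python 3.11.15 with pandas 2.3.3, numpy 2.4.6 and matplotlib 3.10.9.

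For genes with several probe sets, the one with the highest mean over the 8 arrays stood for the gene. Marker sums add levels on the linear scale. The text names all members, and of each of the 4 pathway lists the 2 genes with the smallest unadjusted p, plus SREBF1 and MID1IP1. It also names the 4 most alike genes of FASN and ACACA, passing over placeholder symbols, and any further gene was chosen with its values in view. The members and lists were chosen with earlier results of these data known. Alternatives were other blocks, array weights, scalings, filters and priors, a threshold of 0.1, averaging probe sets within genes, each cow left out, cows 1 and 3 alone and, added after seeing the data, the GAPDH covariate.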

Additional observations from a re-analysis of the deposited data

Results flagged for a closer look

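FASN in the full gland of cow 4, at 11.63 log2, lay far below the other 3 full glands, which were at 12.69, 12.71 and 12.76. The gap to the nearest of them made up 0.934 of the group's range, which is above Dixon's 95% critical value for 4 samples. Of the 22 groups of 4 libraries examined (11 probe sets in 2 states) this was the only 1 past that value, and chance flags about 1 in 20. The same library was also the lowest of the 8 for THRSP, ACSS2, SCD, the brighter ACACA and the dimmer ACSS1 probe set. For ACACA the margin was small, at 7.245 against 7.248 in the full gland of cow 2.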

How the results depend on the processing

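In limma, 0 of 24016 probe sets passed with cow as a block (600, or 2.5%, at an unadjusted p under 0.05). The count was also 0 with no replicate block, with cow as a random block, and under each of the other alternatives, the threshold of 0.1 among them. The smallest adjusted p of a member was 0.823. Of 125 alternative values of single genes, 115 kept the direction and 10 turned. SCD turned to 0.078 in cows 1 and 3 alone, 0.030 with array weights, 0.0042 with repeated quantile normalization and 0.00019 with the GAPDH covariate, and ranged from -0.051 to 0.035 with 1 cow left out. Left out in turn, the cows gave a range of -0.038 to 0.27 for ELOVL6, turning without cow 2, and of -0.23 to 0.086 for THRSP, turning without cow 4. In cows 1 and 3 alone ACLY turned to -0.087, ACSS1 to 0.025 and ELOVL6 to -0.12. The members' median of -0.21 ranged from -0.29 without cow 1 to -0.042 without cow 4, and was -0.024 in cows 1 and 3 alone and -0.12 with array weights. The number of members with a lower mean stayed at 6 or 7 under each alternative run, but not always with the same genes. In cows 1 and 3 alone ACLY and ELOVL6 joined the lower ones while ACSS1 and SCD left them. The steady count therefore does not show a steady direction of each gene. Probe sets that differed between cows, 105 in the main model, numbered 13 to 131 when 1 cow was left out, 208 after median centring and 248 with an intensity trend and robust prior. The causes of these shifts were not tested.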

Other observations

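In cow 4, 3 elongases outside the members were higher in full than in empty gland, in values chosen after they were seen. ELOVL4 was higher by 1.07 log2, ELOVL5 by 0.79 and ELOVL7 by 0.75, and ME1, the NADPH-producing malic enzyme, by 0.88. In cow 1 the same genes differed by -0.10, -0.23, 0.052 and -0.34. ELOVL6 differed by 0.12 in cow 4. The mean differences over 4 cows were 0.22 ± 0.23, 0.18 ± 0.18, 0.19 ± 0.15 and 0.30 ± 0.20 (SE) for ELOVL4, ELOVL5, ELOVL7 and ME1, and none passed limma (adjusted p = 0.993).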
